A study of Mus musculus with 10 samples.

Results

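Circular RNAs (circRNAs) whose back-splice junction spans 50 kb or more of the genome were examined in mouse retinae of 5 ages. They were taken as every entry of the circRNA table that is named by chromosome, start, end and strand and whose end lies at least 50000 bases from its start. This gave 637 of the 8054 circRNAs named by position, and of 9029 in all. The other 975 entries carry only a database identifier, so their spans are not known here and long ones among them are not counted. Retinae of C57BL/6 mice were collected at embryonic day 18.5 (E18.5) and at postnatal days 1, 7, 14 and 30 (P1, P7, P14 and P30), with 2 libraries per age, by sequencing of total RNA depleted of ribosomal RNA. No genotype or treatment distinguishes the ages, whole retinae were used, and the labels do not say how many animals went into a library. The study describes its retina replicates as biological and states more of them per age than the 2 libraries available here. The labels do not tie libraries to animals, so every p-value here rests on the spread among these libraries. Values are estimated counts of reads per circRNA. Column totals were 6606.5 and 7127 counts at E18.5, between 7426 and 17048 counts at P1, P7 and P14, and 28104.5 and 28658 counts at P30.

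A circRNA forms when the spliceosome joins the downstream end of an exon, a splice donor, to the upstream end of the same or an earlier exon, a splice acceptor. The resulting loop has no free ends and withstands exonucleases that degrade linear RNA, and circRNAs are known to be abundant in neural tissue and to gain in abundance as neurons mature. The span used here is the genomic distance between acceptor and donor, introns included. It is not the length of the molecule, since introns are usually removed and a circRNA that spans a very long distance may hold only a few exons. The positions are those of the mm9 build, and the gene annotation at hand is of a later build, so the circRNAs are not placed in genes, exons or introns here, no sequence was read at these positions, and markers of retinal cell types were not measured.

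The 637 circRNAs spanned 50041 to 99953 bases, with a median of 65390 bases and quartiles of 56329 and 77314 bases. No circRNA named by position in the table was longer than 99953 bases, whereas the median span of all circRNAs named by position was 10725.5 bases. Of the long circRNAs, 325 lay on the plus strand and 312 on the minus strand. Chromosome 1 carried the most, 69 circRNAs. They made up 13.7% of the circRNAs named by position on chromosome X, 11.7% on chromosome 18 and 3.95% on chromosome 7. At the border of the rule, the 2 shortest members were chr7:66539395-66589436 on the minus strand, with 5 and 2.5 counts in the P30 libraries and 0 elsewhere, and chr18:10090810-10140886 on the minus strand, with 2 counts in 1 P14 library and 0 elsewhere. The 2 circRNAs just outside it, chr12:79555743-79605738 and chr11:23251591-23301578, both on the plus strand, were at 0 in every library.

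In the following, a circRNA is called listed in a library where its value is above 0. The smallest value above 0 in the table is 2, so a 0 covers both absence and values under that minimum, and no upper limit was drawn from it. Of the 637 long circRNAs, 458 were listed in at least 1 library and 179 (28.1%) in none. The share never listed was 28.7% among circRNAs spanning 10 to 50 kb, 33.2% among those of 1 to 10 kb and 38.7% among those under 1 kb, so it was not higher among the long ones.

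Long circRNAs were more abundant and more numerous at P30 than at any other age. Their summed counts per library were 129 and 109 at E18.5, 167 and 177.5 at P1, then 235.5 and 144.5 at P7, 338.5 and 571 at P14, and then 1256.5 and 1563 at P30. As a share of all listed circRNA counts these were 1.95% and 1.53% at E18.5, 1.84% and 2.06% at P1, then 2.45% and 1.95% at P7, 2.88% and 3.35% at P14, and then 4.47% and 5.45% at P30. Both P14 libraries lay above every library of the 3 earlier ages, and both P30 libraries lay above both P14 libraries, whereas E18.5, P1 and P7 overlapped. The exact (Clopper-Pearson) 95% binomial intervals of the P30 libraries, 4.23% to 4.72% and 5.19% to 5.72%, did not reach those of the E18.5 libraries, 1.63% to 2.32% and 1.26% to 1.84%. These intervals cover counting error only, and those of the 2 P30 libraries did not overlap each other. The share averaged 4.96 ± 0.695% at P30 and 1.74 ± 0.299% at E18.5 (SD, n = 2 each), a difference of 3.22 percentage points. The most abundant long circRNA did not carry it, since the difference was 3.07 percentage points without that circRNA.

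**Figure D1:**
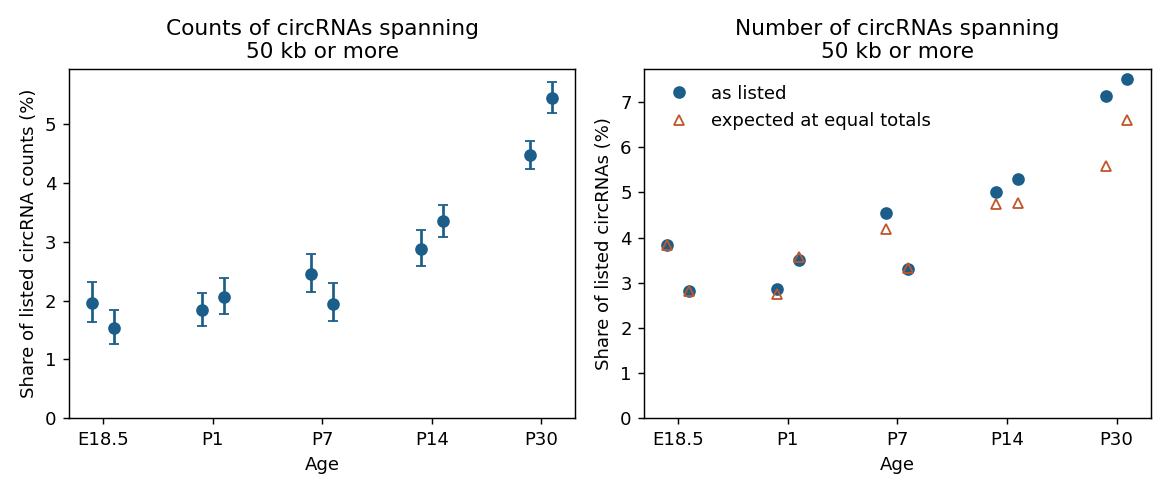
Left, the share of all listed circRNA counts (%) held by circRNAs spanning 50 kb or more in each library, by age, with 95% exact binomial bars that cover counting error only. Right, the share of listed circRNAs (%) that span 50 kb or more (circles) and the share expected if every library had the lowest total of 6606.5 counts (triangles). Both P30 libraries lie above all others in both panels.

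The number of long circRNAs listed was 32 and 24 at E18.5, 32 and 40 at P1, then 55 and 33 at P7, 70 and 96 at P14, and then 200 and 209 at P30. Their share of all listed circRNAs averaged 7.33 ± 0.258% at P30 and 3.32 ± 0.732% at E18.5 (SD, n = 2 each). The library totals moved in the same direction, and a circRNA of few counts is more easily listed in a library with more of them. When every library was brought to the lowest total, the expected shares were 3.84% and 2.83% at E18.5, 2.75% and 3.57% at P1, then 4.19% and 3.33% at P7, 4.74% and 4.76% at P14, and then 5.59% and 6.596% at P30. The difference between P30 and E18.5 was then 2.76 percentage points, against 4.001 as listed. The part of the totals in the share of counts was not tested.

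The wider the span, the larger was the ratio of the P30 share to the E18.5 share among circRNAs named by position. CircRNAs of 10 to 50 kb held 28.9 ± 0.532% of counts at P30 and 17.0 ± 0.862% at E18.5, a ratio of 1.71. Those of 1 to 10 kb held 22.2 ± 0.252% at P30 and 17.2 ± 0.289% at E18.5, a ratio of 1.29. Those under 1 kb held 2.94 ± 0.503% at P30 and 3.89 ± 0.0796% at E18.5, a ratio of 0.757 (SD, n = 2 each throughout). Of all counts, every class above 1 kb thus held a larger share at P30, and the class under 1 kb a smaller one. The ratio for the long circRNAs was 2.85. Entries with a database identifier held 40.9 ± 0.414% at P30 and 60.2 ± 0.194% at E18.5, so a fall of their share raises all the other shares together. Within the circRNAs named by position alone, the long ones held 7.61% and 9.19% of counts in the P30 libraries, against 4.92% and 3.83% in the E18.5 libraries, a ratio of means of 1.92. On that base those of 10 to 50 kb had a ratio of 1.15, while those of 1 to 10 kb held a smaller share at P30, 37.6 ± 0.690%, against 43.2 ± 0.936% at E18.5 (SD, n = 2 each). The mean span of circRNAs named by position, weighted by counts, was 18583 and 18886 bases at P30, against 14559 and 15158 bases at E18.5. These are descriptions of shares, without a test.

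**Figure D2:**
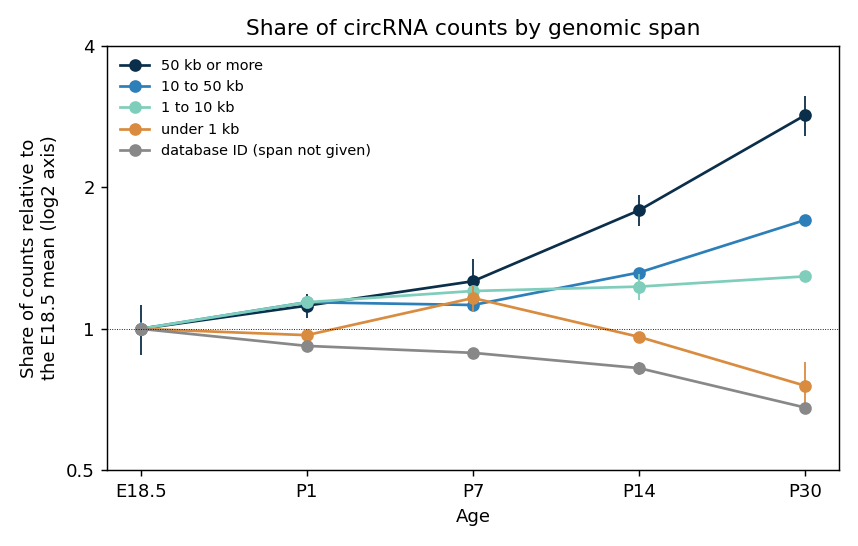
Share of all listed circRNA counts by genomic span and age, divided by the mean E18.5 share of the same class (log2 axis). Points are means of 2 libraries and vertical lines run between them. At P30 the ratio was 2.85 for 50 kb or more, 1.71 for 10 to 50 kb, 1.29 for 1 to 10 kb, 0.757 for under 1 kb and 0.680 for entries known only by a database identifier.

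Within the long circRNAs the ratio of the P30 share to the E18.5 share could not be ordered by span. The 243 circRNAs of 50 to 60 kb held 2.08% of all counts at P30 and 0.514% at E18.5, the 221 of 60 to 75 kb held 1.86% at P30 and 0.999% at E18.5, and the 173 of 75 to 100 kb held 1.03% at P30 and 0.229% at E18.5. The E18.5 libraries were unlike in the first group, with 0.901% in 1 and 0.126% in the other, and in the last, with 0.344% and 0.114%. Against 1 E18.5 library or the other, the ratio was 2.30 or 16.4 for 50 to 60 kb, 1.75 or 1.98 for 60 to 75 kb, and 3.00 or 9.09 for 75 to 100 kb, so the order of the ratios depends on the library. The middle group was the most abundant of the 3 at E18.5, and the group of 50 to 60 kb at P30.

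Most of the long circRNAs that were listed at all appeared in a single library. Of the 458 listed, 311 were listed in 1 library only, 200 of them in a P30 library, 73 in 2 libraries, 35 in 3 and 39 in at least 4. Only 1 was listed in all 10 libraries and 9 at every age. The age at which they were first listed was E18.5 for 50, P1 for 41, P7 for 51, P14 for 83 and P30 for 233. Of those first listed at P30, 33 were in both P30 libraries. Of the 50 listed at E18.5, 26 were listed again at P30, and 42 circRNAs listed at E18.5 or P1 were listed at neither P14 nor P30. Library totals were largest at P30 as well, and these counts over all circRNAs are not given here. The mean number listed at P30 was 7.30 times that at E18.5 for long circRNAs. For spans of 10 to 50 kb, 1 to 10 kb and under 1 kb it was 4.65, 3.91 and 2.13 times, and for database identifiers 1.70 times.

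Agreement between libraries of an age was low throughout. At P30, 82 of the 327 long circRNAs listed in either library were listed in both (25.1%). The corresponding shares at P30 were 29.9% for spans of 10 to 50 kb, 30.8% for 1 to 10 kb, 27.2% for under 1 kb and 59.0% for entries with a database identifier. At E18.5 both libraries listed 6 of 50 long circRNAs, at P1 14 of 58, at P7 12 of 76 and at P14 31 of 135. The median value of a listed long circRNA was between 3.25 and 4.5 counts in all libraries, and the 10 most abundant held 31.6% of the long circRNA counts in each P30 library, against 52.3% and 60.6% at E18.5. Long circRNAs listed numbered 32 and 24 at E18.5 and 200 and 209 at P30, so the 10 are a larger part of those listed at E18.5. The long circRNA counts at P30 were spread over many circRNAs of a few counts each as well as over several abundant ones.

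A larger share of long circRNAs than of shorter ones used a splice site of another circRNA. Of the 637, 508 (79.7%) had an acceptor or a donor in common with another circRNA named by position, against 67.6% of those of 10 to 50 kb, 44.5% of those of 1 to 10 kb and 28.0% of those under 1 kb. The acceptor was shared by 395 (62.0%), the donor by 303 (47.6%) and both ends by 190 (29.8%). Acceptors were shared more often than donors in every span class. The 637 circRNAs used 526 distinct acceptors and 569 distinct donors, with at most 5 long circRNAs on 1 acceptor and 4 on 1 donor. No test was made of these shares, since overlapping circRNAs are not independent. Here and below, acceptors, donors and loci are counted among circRNAs named by position only. Entries with a database identifier could use the same sites but are not counted there. They held 60.2% of all counts at E18.5 and 40.9% at P30.

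**Figure D3:**
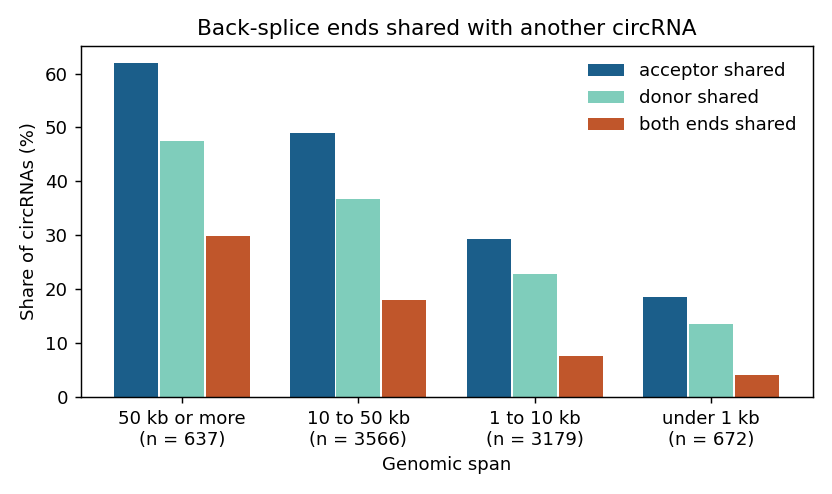
Share of circRNAs (%) whose acceptor, donor or both ends are also used by another circRNA named by position, by genomic span, with the number of circRNAs in each class below it. All 3 shares are highest for spans of 50 kb or more (62.0%, 47.6% and 29.8%) and lowest for spans under 1 kb.

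Sharing an end with a shorter circRNA, as 453 long circRNAs did (71.1%), went with being listed. Of the 145 whose both ends were used by shorter circRNAs, 77.2% were ever listed and 24.1% were listed in both P30 libraries. Of the 308 with 1 such end, 73.1% were ever listed and 10.7% were in both P30 libraries, and of the 184 with none, 65.8% and 7.61%. The 453 circRNAs shared ends with 748 shorter ones. Those 748 also held a larger share of all counts at P30, with 12.4% and 11.98%, against 8.04% and 8.83% at E18.5. The ratio of means was 1.45, between the 1.71 of all circRNAs of 10 to 50 kb and the 1.29 of those of 1 to 10 kb. It was thus not particular to circRNAs that share an end with a long one. Entries with a database identifier fell from 60.2% to 40.9% of counts, which raises the other shares together. Of the counts on these long and shorter circRNAs together, the long ones held 17.4% and 11.9% at E18.5, 14.9% and 17.5% at P1, then 16.9% and 11.99% at P7, 18.8% and 20.5% at P14, and then 23.2% and 28.1% at P30. Both P30 libraries lay above all others. The shorter circRNAs held most of the counts of these sets in every library, P30 included.

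Many long circRNAs overlapped one another. Overlapping ones on 1 strand formed 394 loci, of which 132 held 2 or more long circRNAs, 375 in all, and 23 held 4 or more. The locus with the most listed was on the plus strand of chromosome 15, chr15:39268542-39506627. It held 13 long circRNAs, all listed, made from 9 acceptors and 6 donors. Their summed counts were 3 and 0 at E18.5, 8 and 0 at P1, then 0 and 0 at P7, 23.5 and 11.5 at P14, and then 62.5 and 69 at P30, so both P30 libraries were above all others. As a share of all counts they held 0.1996% and 0.06746% at P14 and 0.2224% and 0.2408% at P30, so 1 P14 library was close to P30. The 14 shorter circRNAs within the locus summed to 0 in the E18.5 and P1 libraries, 2.5 and 0 at P7, 33.5 and 47 at P14, and then 78 and 100.5 at P30. As a share of all counts these held 0.2845% and 0.2757% at P14 and 0.2775% and 0.3507% at P30, so those ages overlapped. The shorter circRNAs of this locus were thus listed mainly from P14 on. The long ones also held 0.0454% of all counts in E18.5 replicate 1 and 0.0880% in P1 replicate 1. The latter was above P14 replicate 3, so in share of counts the long ones had no clear onset at P14.

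The 3 most abundant circRNAs of that locus were spread thinly over libraries. The circRNA chr15:39283769-39342920 had 3 and 0 counts at E18.5, 8 and 0 at P1, then 0 in both P7 libraries, 10 and 4 at P14, and then 10 and 11 at P30. The circRNA chr15:39367417-39418331 had 4 counts in each P14 library and 7 and 25 at P30, and was at 0 before. The circRNA chr15:39268542-39342920, which ends at the same donor as the first, had 4.5 and 0 counts at P14 and 10.5 and 0 at P30. None of the 3 passed the filter on low counts used for the tests that follow. At E18.5 and P1 the locus sum was that of the first circRNA alone. In the P14 and P30 libraries it was made up of several circRNAs, with 25 of 69 counts on the second in 1 P30 library.

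Other loci differed in the age at which they were first listed. On the minus strand of chromosome 1, chr1:4132692-4302803 held 11 long circRNAs, 8 of them listed, with summed counts of 0 in the E18.5 and P1 libraries, 23.5 and 11.5 at P7, 37 and 89 at P14, and then 40 and 40.5 at P30. The 19 shorter circRNAs within it followed the same order, with 0 in the E18.5 and P1 libraries, 34.5 and 29 at P7, 83 and 172.5 at P14, and then 97.5 and 73 at P30. As a share of all counts, the long circRNAs of that locus held 0.314% and 0.522% at P14 and 0.142% and 0.141% at P30. On the minus strand of chromosome 19, chr19:37119011-37214041 held 7 long circRNAs, 6 of them listed, with 22 and 32 counts at P30, 3 counts in 1 E18.5 library and 0 elsewhere. The 3 shorter circRNAs within it had 6.5 counts in 1 P30 library and 0 elsewhere. Nearly all counts of circRNAs named by position at that locus were thus on long circRNAs. On the plus strand of chromosome 11, chr11:108295439-108431737 held 6 long circRNAs with 12 and 18 counts at P30, against 2 and 4 counts at E18.5. As shares of all counts these were 0.0427% and 0.0628% at P30, against 0.0303% and 0.0561% at E18.5, and the ages overlapped. There the 9 shorter circRNAs held far more counts at every age, but their share was lower at P30, with 0.406% and 0.478%, against 1.20% and 0.996% at E18.5. These 3 loci were chosen after their values were seen.

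Differences between ages were tested for single circRNAs with edgeR's quasi-likelihood test on rounded counts over the whole table, with Benjamini-Hochberg adjustment and a threshold of 0.05. Only 7 of the 637 long circRNAs (1.10%) passed its filter on low counts, against 1.85% of those of 10 to 50 kb, 2.04% of those of 1 to 10 kb, 1.64% of those under 1 kb and 18.3% of entries with a database identifier. A circRNA listed at a single age can pass that filter only by being high there, so the count of calls among the 7 does not describe the other 630. Nor is that count separate evidence of a rise at such an age. Across the 5 ages 5 of the 7 were called, against 36.7% of all 327 circRNAs tested. For P30 against E18.5, 6 of the 7 were higher and 0 lower, against 24.8% of all tested that were called higher and 10.4% called lower. No member was lower at P30 at an unadjusted p under 0.05 (0 of 7), and DESeq2 also called 0 lower. The median change of all 327 was 0.31 on the log2 scale with TMM scaling, which takes most tested circRNAs as unchanged, and -0.21 with library totals alone. In these fits the library totals are sums over the tested circRNAs, not the column totals given above. Log2 changes below are on that scale.

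Steps between successive ages gave 1 call among the 7. For P1 against E18.5, edgeR's quasi-likelihood test called 0 members, against 0.0% of all tested, and 2 members had an unadjusted p under 0.05. For P7 against P1 it called 0 members, against 4.28% of all, with 4 members at an unadjusted p under 0.05, 2 of them lower at P7. The percentages are of adjusted calls, and shares of all tested at the unadjusted threshold are not given here. For P14 against P7 it called 0 members, against 5.5% of all, with 0 at an unadjusted p under 0.05. No step before P30 thus gave a call by this test. For P30 against P14 it called 1 member, higher at P30, against 2.75% called in either direction and 2.14% called higher. DESeq2 called 1 member for P7 against P1, the minus-strand circRNA of chromosome 1 described below, and 0 at the other 3 steps.

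**Figure D4:**
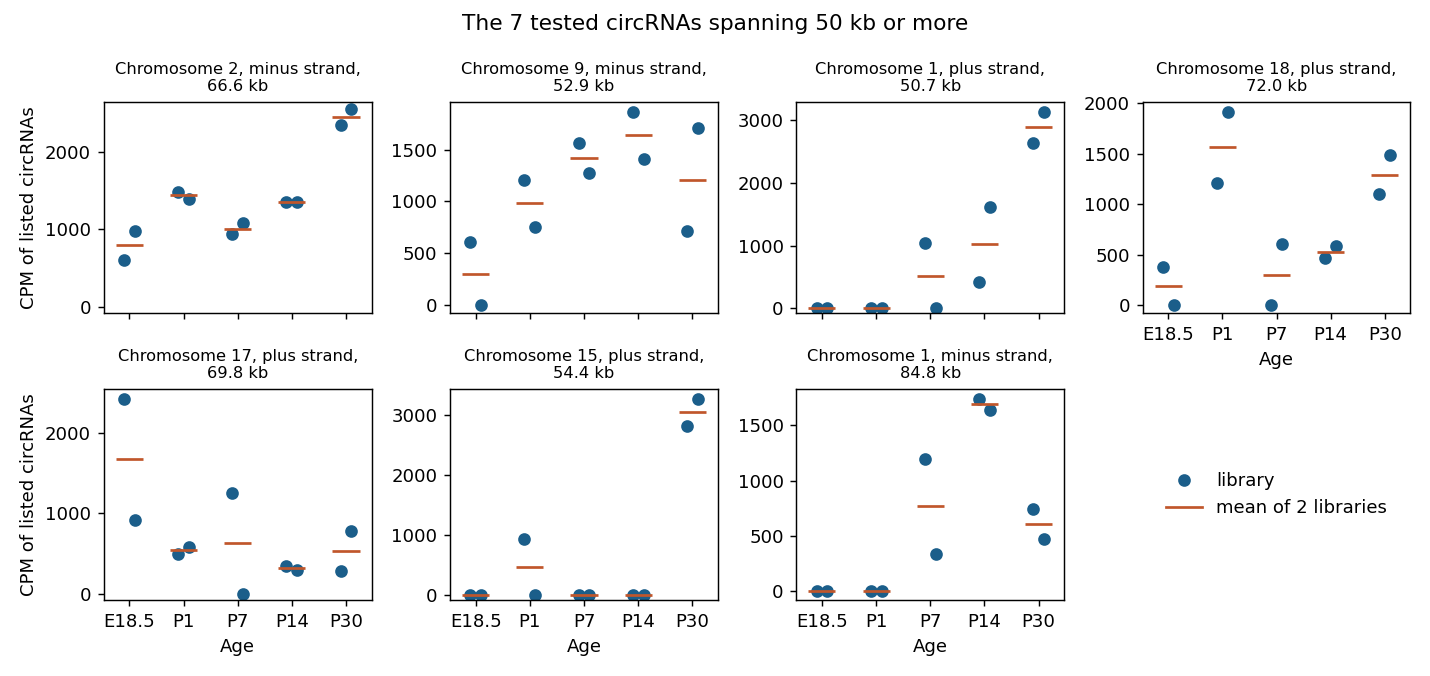
Abundance of the 7 long circRNAs that were tested, as CPM (counts scaled to a total of 1000000 listed circRNA counts in each library), by age. Points are libraries and short lines the means of 2 libraries; a point at 0 is a circRNA not listed there. The circRNAs on chromosome 2, chromosome 15 and the plus strand of chromosome 1 are highest in both P30 libraries, and the one on the minus strand of chromosome 1 in both P14 libraries.

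The most abundant long circRNA was chr2:37436192-37502805 on the minus strand, which spans 66613 bases and was the only long circRNA listed in all 10 libraries. It had 4 and 7 counts at E18.5, 13.5 and 12 at P1, then 9 and 8 at P7, 16 and 23 at P14, and then 66 and 73 at P30. In CPM, that is in counts scaled to a total of 1000000 in each library, it averaged 794 ± 266 at E18.5, 1440 ± 63.4 at P1, 1007 ± 99.6 at P7, 1354 ± 6.97 at P14 and 2448 ± 141 at P30 (SD, n = 2 each). Both P30 libraries lay above all others, also in CPM, and the E18.5 mean was the lowest. Its log2 change for P30 against E18.5 was 2.52 ± 0.52 (SE, adjusted p = 0.00240 by edgeR's quasi-likelihood test), and its adjusted p across the 5 ages was 0.00624. This change is relative to the tested circRNAs after TMM scaling, so it is not the change in CPM. The call across ages was lost in 3 of 16 alternative fits: without P30 replicate 2, without P30 replicate 3 and with the replicate number as a block. The call for P30 against E18.5 was lost in 1 of 17, that with the block.

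Among circRNAs named by position, the splice acceptor of that circRNA, at position 37502805, was joined to 9 donors. The use of the farthest donor relative to the others differed between ages. The nearest donors with sizeable counts gave circRNAs spanning 6435, 11862 and 23113 bases. The circRNA of 6435 bases had 43 and 45 counts (1530 and 1570 CPM) at P30, against 27 and 25.5 counts (4087 and 3578 CPM) at E18.5. The circRNA of 11862 bases had 37 and 32 counts (1317 and 1117 CPM) at P30, against 17 and 11.5 counts (2573 and 1614 CPM) at E18.5. The circRNA of 23113 bases had 54 and 78.5 counts (1921 and 2739 CPM) at P30, against 15.5 and 35.5 counts (2346 and 4981 CPM) at E18.5. In CPM the first and the second of these were lower in both P30 libraries than in either E18.5 library, and the third overlapped between the ages, so their higher counts at P30 went with the larger totals. All 3 were above the long circRNA in both E18.5 libraries, whereas at P30 the long one was above the circRNAs of 6435 and 11862 bases in both libraries.

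As a share of the counts of circRNAs named by position on this acceptor, the long circRNA held 5.59% and 8.81% at E18.5, 11.2% and 11.4% at P1, then 9.63% and 11.2% at P7, 22.2% and 19.2% at P14, and then 30.6% and 27.9% at P30. The P14 libraries lay above the 6 earlier ones and the P30 libraries above the P14 libraries. With both libraries of an age added, it was 139 of 477.5 counts at P30 (29.1%, exact 95% binomial interval 25.04% to 33.4%), against 11 of 151 counts at E18.5 (7.29%, 3.69% to 12.7%). The share is a ratio within each library. The intervals cover counting error only, and the share was described after its values were seen.

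**Figure D5:**
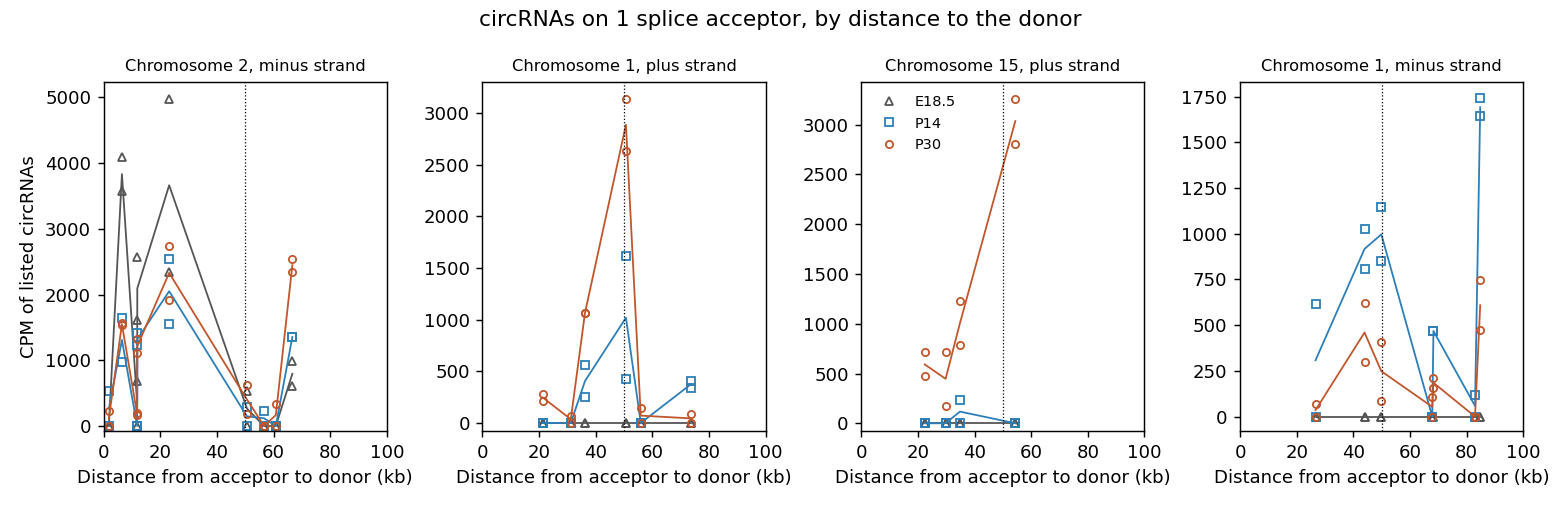
CPM per library of all listed circRNAs named by position that use the same splice acceptor, against the distance from that acceptor to each donor (kb), for the 4 acceptors with at least 4 circRNAs whose tested long circRNA has the most counts. Triangles, squares and circles are libraries at E18.5, P14 and P30, lines join the means of 2 libraries, and the dotted line marks 50 kb. On chromosomes 2 and 15 the longest circRNA is among the most abundant or the most abundant at P30, and on the plus strand of chromosome 1 it is the one just beyond 50 kb.

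On the plus strand of chromosome 15, chr15:68825481-68879891 spans 54410 bases and was listed almost only at P30. It had 79 and 93.5 counts at P30, 8.5 counts in 1 P1 library and 0 in the other 7 libraries. At 3037 ± 319 CPM (SD, n = 2) it was the most abundant long circRNA at P30 and held 6.12% of all long circRNA counts there. It was called for P30 against E18.5 (adjusted p = 0.00222), across the 5 ages (adjusted p = 8.07e-04) and for P30 against P14 (adjusted p = 0.0245), all by edgeR's quasi-likelihood test. It passed the filter on low counts only through its P30 libraries, so these calls are no support apart from that selection. No fold is given, since both E18.5 and both P14 libraries were listed at 0. With DESeq2 none of the 3 calls held (adjusted p = 0.221 for P30 against E18.5), and the step from P14 was lost in 8 of 17 alternative fits.

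The 3 shorter circRNAs on the same acceptor had fewer counts and the same timing. That of 34859 bases had 34.5 and 22.5 counts at P30, 4 in 1 P14 library, 2 in 1 P1 library and 0 elsewhere. Those of 29788 and 22423 bases had 5 and 20.5 counts and 20 and 13.5 counts at P30, and 0 at every other age. The long circRNA thus held 57.0% and 62.3% of the counts on this acceptor in the P30 libraries.

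On the plus strand of chromosome 1, chr1:190239556-190290219 spans 50663 bases. It was at 0 in the E18.5 and P1 libraries and had 10 and 0 counts at P7, 5 and 27.5 at P14, and then 74 and 90 at P30. Its counts were highest in both P30 libraries, and the libraries of P7 and of P14 differed widely within each age. It passed the filter on low counts through 1 P14 library and both P30 libraries. It was called for P30 against E18.5 (adjusted p = 0.00275) and across the 5 ages (adjusted p = 0.00271) by edgeR's quasi-likelihood test, and DESeq2 did not call it across ages (adjusted p = 0.0545). Neither call held with the replicate number as a block. Its acceptor was joined to 7 donors, and the circRNA nearest to it in abundance, of 36201 bases, had 30 and 30.5 counts at P30. The long circRNA held 61.4% and 71.2% of the counts on the acceptor at P30 and 41.7% and 62.5% at P14. It lies just above the span minimum.

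On the minus strand of chromosome 1, chr1:4216691-4301514 spans 84823 bases and had its highest counts before P30. It was at 0 in the E18.5 and P1 libraries and had 11.5 and 2.5 counts at P7, 20.5 and 28 at P14, and then 21 and 13.5 at P30. In CPM it averaged 1692 ± 69.9 at P14 and 609 ± 195 at P30, with both P14 libraries above both P30 libraries. The step from P14 to P30 did not pass the test (log2 change -1.10 ± 0.78 SE, adjusted p = 0.640 by edgeR's quasi-likelihood test). It was called for P30 against E18.5 (adjusted p = 0.0146) and across the 5 ages (adjusted p = 0.00624). The first call was lost in 4 of 16 alternative fits: without E18.5 replicate 1, P14 replicate 3 or P30 replicate 2, and with the replicate number as a block. The second was lost in 2 of 16, without P14 replicate 3 and with that block.

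Its acceptor was joined to 9 donors, 7 of them listed and none before P7. The circRNA of 49907 bases, just under the span minimum, had 7.5 and 2 counts at P7, 10 and 19.5 at P14, and then 11.5 and 2.5 at P30. That of 43965 bases had 3.5 and 6.5 counts at P7, 9.5 and 17.5 at P14, and then 17.5 and 8.5 at P30. With both libraries of an age added, the long circRNA held 36.4% of the counts on the acceptor at P7, 37.0% at P14 and 38.3% at P30. The libraries of an age differed, with 45.1% and 19.2% at P7, 45.0% and 32.8% at P14, and then 34.4% and 46.6% at P30, so the ages overlapped. Within the same locus, chr1:4153935-4221225 had a similar course, with 0 in the E18.5 and P1 libraries, 9.5 and 5.5 counts at P7, 11 and 40 at P14, and then 0 and 8.5 at P30. It did not pass the filter on low counts.

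On the minus strand of chromosome 9, chr9:55654819-55707725 spans 52906 bases and was listed in 9 of the 10 libraries. It had 4 and 0 counts at E18.5, 11 and 6.5 at P1, then 15 and 9.5 at P7, 22 and 24 at P14, and then 20 and 49 at P30. In CPM it averaged 1638 ± 326 at P14, 1211 ± 706 at P30 and 303 ± 428 at E18.5 (SD, n = 2 each), and the 2 P30 libraries lay on either side of the P1 values. Its log2 change for P30 against E18.5 was 2.92 ± 0.90 (SE, adjusted p = 0.0226 by edgeR's quasi-likelihood test), but it was not called across the 5 ages (adjusted p = 0.0902). Its size rested on single libraries: it was 2.01 without the E18.5 library at 0, 2.09 without P30 replicate 3, and a fitted 7.49, against a lone library at 0, without E18.5 replicate 1. The call was lost in 6 of 17 alternative fits, which were library totals in place of TMM scaling (adjusted p = 0.0569), only the 2 ages compared (adjusted p = 0.0875), the replicate number as a block (adjusted p = 0.248), and the fits without the E18.5 library at 0 (adjusted p = 0.120), P14 replicate 3 (adjusted p = 0.0676) or P30 replicate 3 (adjusted p = 0.248). On its acceptor the only other circRNA named by position spans 1838 bases. It had 10 and 13.5 counts at P30, against 2.5 and 3.5 at E18.5, with overlapping CPM of 356 and 471 at P30 and 378 and 491 at E18.5.

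On the plus strand of chromosome 18, chr18:5633201-5705241 spans 72040 bases. It had 2.5 and 0 counts at E18.5, 11 and 16.5 at P1, then 0 and 4.5 at P7, 5.5 and 10 at P14, and then 31 and 42.5 at P30. In CPM the P1 libraries, with 1210 and 1918, were as high as the P30 libraries, with 1103 and 1483, and those of E18.5, P7 and P14 were lower. Its log2 change for P30 against E18.5 was 3.94 ± 1.12 (SE, adjusted p = 0.0146 by edgeR's quasi-likelihood test), with an adjusted p across the 5 ages of 0.0332. The size of the change rested on the 2.5 counts of 1 E18.5 library: it was 3.07 without the unnumbered library, and the fitted 7.57 without replicate 1 is against a lone library at 0. The first call was lost in 4 of 17 alternative fits, all of which left 1 library at an age. These were the fits without the unnumbered E18.5 library, without P30 replicate 2 or P30 replicate 3, and with the replicate number as a block. The second was lost in 7 of 16 alternative fits, among them that with library totals (adjusted p = 0.0588). Almost no other circRNA named by position used its acceptor, where it held all 31 such counts in 1 P30 library and 93.4% of 45.5 in the other.

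On the plus strand of chromosome 17, chr17:6137210-6207057 spans 69847 bases and was the only tested long circRNA that was not called. It had 16 and 6.5 counts at E18.5, 4.5 and 5 at P1, then 12 and 0 at P7, 4 and 5 at P14, and then 8 and 22.5 at P30. In CPM it averaged 535 ± 354 at P30 and 1667 ± 1068 at E18.5 (SD, n = 2 each), and the E18.5 libraries, with 2422 and 912, differed more from each other than the age means of P1, P7, P14 and P30 did. Its log2 change was -0.69 ± 1.05 (SE, adjusted p = 0.646 by edgeR's quasi-likelihood test), and without E18.5 replicate 1 it was 0.39. On its acceptor the circRNA of 48088 bases had 40 and 17 counts at P30, against 12.5 and 16.5 at E18.5, but in CPM it was lower at P30, with 1423 and 593, against 1892 and 2315 at E18.5.

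Of the other abundant long circRNAs, chr3:100382398-100460197 on the minus strand had 5 and 0 counts at E18.5, 5 and 2.5 at P1, then 2 and 4 at P7, 5.5 and 9.5 at P14, and then 19.5 and 30 at P30. The circRNA chr16:94833025-94899199 on the plus strand had 2.5 and 2.5 counts at E18.5, 0 and 6 at P1, then 5 and 0 at P7, 2.5 and 15 at P14, and then 21.5 and 34.5 at P30. In both, the P30 counts were the highest. In CPM the first had 694 and 1047 at P30, against 757 and 0 at E18.5, so its ages overlapped. The second had 765 and 1204 CPM at P30, against 378 and 351 at E18.5, with 880 in 1 P14 library. Neither passed the filter on low counts.

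The widest circRNAs listed in at least 4 libraries were of low abundance and followed no common course. The circRNA chrX:81167805-81267751 on the plus strand, of 99946 bases, had 2.5 counts in 1 E18.5 library, 3.5 in 1 P7 library, 4.5 and 12.5 at P14, and then 4 and 4 at P30. The circRNA chr11:108295439-108392779 on the plus strand, of 97340 bases, had 4 counts in 1 E18.5 library, 6 and 6 at P1, 12 and 15 at P30, and 0 in all P7 and P14 libraries. In CPM the first was highest in a P14 library (733) and the second in a P1 library (698). The circRNA chr14:69902788-69991178 on the minus strand, of 88390 bases, had 5.5 counts in 1 P1 library, 6 and 4 at P7, 2.5 in 1 P14 library, and 6.5 and 18.5 at P30. It shared neither end with another circRNA named by position. The circRNAs chr17:5040579-5127024 and chr6:11911549-11997944, both on the plus strand, of 86445 and 86395 bases, were listed in 7 and 8 libraries with at most 8.5 and 10.5 counts. The first had its highest CPM in a P1 library (935) and the second in an E18.5 library (702).

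The 3 circRNAs of the tested table whose log2(CPM + 1) followed the chromosome 2 circRNA most closely over the 10 libraries were chrX:90865843-90871951 on the minus strand (Pearson r = 0.831), mmu_circ_0001066 (r = 0.826) and mmu_circ_0000522 (r = 0.824). The first had 73 and 89 counts at P30, against 5.5 and 12 at E18.5. The second had 81.5 and 77 counts at P30 and 0 in both E18.5 libraries. The third had 149 and 121 counts at P30, against 5 and 12 at E18.5. These correlations are given as a description, since the libraries share their ages and totals. None of the 3 is a long circRNA by its given span, which for the entries with a database identifier is not known.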

How the data were processed

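The authors deposited 1 table of estimated counts per circRNA, unscaled, in which each library has its column. Values run in steps of 0.5, the smallest above 0 is 2, and 45.6% of those above 0 are not whole. Trimmomatic and mm9 are named in the submitters' processing notes. For the circRNA caller, its version and its limits on span, the notes and the paper's methods name nothing (not given in the sources used here). Age and number in the column name gave each library. The second E18.5 column, whose number no E18.5 label carries, was used as an unnumbered E18.5 replicate.

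Positions are given as in the table. Of 8054 circRNAs named by position, 158 starts lay 1 base before an annotated GRCm38 exon start and 1 lay on it, and 160 ends lay on an exon end, so starts appear to count from 0. This comparison of mm9 positions with GRCm38 exon borders was used for nothing else, and no position was converted. Acceptor and donor follow from the strand. Values were rounded, filtered with filterByExpr (minimum count 10) and then scaled by TMM. Library totals in the fits were sums over the circRNAs kept, with 4213 in E18.5 replicate 1 and 14036 in P30 replicate 3. CPM was scaled by the column totals instead, so log2 changes and CPM are not on the same scale. The test was glmQLFTest after glmQLFit (edgeR 4.0.16, R 4.3.3), with the 5 ages as levels of 1 factor over 10 libraries (common dispersion 0.125, 5 residual degrees of freedom). SE is the log2 change divided by the square root of F. The test was checked on simulated counts. DESeq2 1.42.0 was an alternative. Intervals are exact binomial at 95%, on rounded counts. Equal totals are expected values after thinning to 6606.5 counts with the minimum of 2 kept. Python 3.11.15, pandas 2.3.3, numpy 2.4.6, scipy 1.17.1 and matplotlib 3.10.9 were used.

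Named were the 10 long circRNAs with the highest mean CPM, every one called, the 5 widest listed in at least 4 libraries, 2 on either side of the span minimum, the locus with the most listed members with its 3 most abundant, and the 3 circRNAs most like the most abundant one. The members, rules and lists were chosen with earlier results of these data known.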

Additional observations from a re-analysis of the deposited data

How the results depend on the processing

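The number of long circRNAs called differed with the filter and where 1 library was left out, which changed the filter as well. Across the 5 ages 5 were called, 10 where 10 counts in every library of an age were asked for (18 tested), 9 with no filter (458 tested), and 3 to 9 when 1 library was left out, with 3 when P14 replicate 3 was absent, 9 when E18.5 replicate 1 was absent and 8 when the unnumbered E18.5 library was. For P30 against E18.5 the 6 calls became 10 with 10 counts asked for, and 4 to 7 without 1 library. The 4 age steps gave 1 call, 0 with 10 counts asked for and 0 to 2 without 1 library, with 0 without P7 replicate 2, either P14 library or either P30 library and 2 in the absence of the unnumbered E18.5 library. With the replicate block over the 9 numbered libraries 1 was called across ages, 1 for P30 against E18.5, the chromosome 15 circRNA, and 0 at the steps. Replicate 1 of P1 and of P7 did not deviate together (r = 0.0202 over 327 circRNAs), so the numbers were not shown to pair libraries. All 6 circRNAs called for P30 against E18.5 were also called with no filter. With no filter 7 of the 458 long circRNAs were called there, all higher at P30. Of all 6365 circRNAs tested without a filter, 1.775% were called in either direction. For the other alternative fits the share of all circRNAs called is not given here. The planned span minimum of 100 kb left no circRNA. With 75 kb, chosen after seeing the data, 1 was called across ages, 1 for P30 against E18.5 and 0 at the steps, the share of counts differed by 0.803 percentage points and the share of listed circRNAs by 1.37. The difference in share of counts, 3.22 percentage points, was 4.02 among circRNAs named by position and 2.73 to 3.71 without 1 library. The difference in share of listed circRNAs, 4.001 points, was 3.06 with entries of the same counts in every library counted once, 2.76 at equal totals, also added after seeing the data, and 3.48 to 4.52 without 1 library. The change of the chromosome 17 circRNA turned to 0.39 on the log2 scale without E18.5 replicate 1 (adjusted p = 0.885, edgeR), with a range of -1.63 to 0.39 over the fits without 1 library. Leaving out a library changed how many long circRNAs passed the filter, from 7 to between 14 and 20. The filter asks for as many libraries as the smallest age holds, which was then 1 instead of 2. Those fits, and the replicate block with its 1 E18.5 library, thus differ in filter and tested set as well as in libraries. Other causes were not tested. Counts of a few reads per circRNA and 2 libraries per age limit all of these values.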
